A study of Mus musculus with 14 samples.

Results

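The 400 largest stitched H3K27ac domains of wild-type (WT) mouse Th1 cells were examined. H3K27ac regions called in both WT libraries, here called core regions, were joined where at most 12.5 kb apart, and the joined domains were ranked by the mean length covered by H3K27ac peaks in the 2 WT libraries. The 19279 core regions formed 11009 domains on chromosomes 1 to 19 and X, of which the first 400 were kept. The values that chose them were therefore the WT H3K27ac lengths, which are given as a description. The other lengths come from libraries that did not enter the choice.

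The study profiled Th1 cells by CUT&RUN, in which an antibody directs a nuclease to its target in intact nuclei and the released DNA is sequenced. Naive CD4+ T cells were isolated from mouse spleen and polarised for 6 days on plate-bound anti-CD3 with soluble anti-CD28, IL-12 at 10 ng/mL and IL-2 at 1 ng/mL. WT cells came from C57BL/6J mice and KO cells from the strain C57BL/6J-Ets1-SE-KO, whose label names a knockout of an element at Ets1 (SE) and gives no coordinates. The sources used here give no ages. Each genotype had 2 libraries for H3K27ac, 2 for CTCF, 2 for ETS1 and 1 for the control antibody IgG, 14 in all. By their titles the 2 WT libraries of an antibody are technical replicates of 1 biological replicate, whereas the 2 KO libraries are 2 biological replicates. WT spreads are therefore technical. The p-values compare these libraries only, with 1 biological replicate in WT, and do not speak of the genotypes at large. The deposited names of the 2 CTCF WT lists number them as separate WT samples, and the titles were followed. The ETS1 libraries differed most in size, 14013 and 23416 peaks for WT compared with 40705 and 9344 for KO, and no list gives read counts, so depth is unknown. IgG had 2 peaks in all in WT, none of them in the domains, and 285 in KO. The KO IgG peaks lay in 21 domains (5.25%), against 1.74% of the other domains, over 7.5 kb in all.

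H3K27ac is an acetylation of histone H3 found at active promoters and enhancers. Clusters of acetylated elements that cover long stretches are known as super-enhancers or stretch enhancers, and in T cells they are known to lie at genes of cell identity and signalling. ETS1 is a transcription factor of the ETS family that binds DNA at a GGAA core and is known to act in T cell development and in Th1 cytokine expression. CTCF is a zinc finger protein that anchors chromatin loops and boundaries.

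Promoter stretches that lie inside the domains were read at base level, whether or not a peak covered them. Apart from microRNAs, other sequence of the domains was not read. RefSeq promoter windows (GRCm38.p6), reduced to the 250 bases before each gene's start, numbered 870 inside the domains, belonging to 679 gene symbols, of 32619 in the table. Of the windows inside, 728 (83.7%) had an H3K27ac peak in both WT libraries, as did 7888 windows outside the domains. The same WT peaks built the domains, so the share inside is only a description. An ETS1 peak in all 4 ETS1 libraries was found in 329 (37.8%) of the windows inside, against 13.7% of all windows. Among acetylated windows the share with ETS1 in all 4 libraries was 44.1% inside the domains and 47.5% outside them. In 12 windows of genes of the 15 top domains or of the gene lists, H3K27ac of both WT libraries and ETS1 of all 4 libraries covered every base. The ETS core letters CCGGAA, read on both strands, were found in 2 of these, those of Socs1 and Rps18. Both are printed, with the window of Cd5, the gene of highest domain rank among the 12, as an example without CCGGAA. The Cd5 window does hold the shorter core GGAA, which was not counted. Capitals mark CCGGAA or its reverse complement, and each strand's match is counted, so overlapping matches on opposite strands count separately. The choice was made after these values were seen.
Cd5 (chr19:10738975-10739224, minus strand, 0 matches): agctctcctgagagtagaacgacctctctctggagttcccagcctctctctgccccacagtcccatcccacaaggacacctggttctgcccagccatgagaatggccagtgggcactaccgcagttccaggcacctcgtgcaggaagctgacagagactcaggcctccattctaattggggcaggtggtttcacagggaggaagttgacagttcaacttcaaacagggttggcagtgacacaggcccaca
Socs1 (chr16:10785537-10785786, minus strand, 3 matches): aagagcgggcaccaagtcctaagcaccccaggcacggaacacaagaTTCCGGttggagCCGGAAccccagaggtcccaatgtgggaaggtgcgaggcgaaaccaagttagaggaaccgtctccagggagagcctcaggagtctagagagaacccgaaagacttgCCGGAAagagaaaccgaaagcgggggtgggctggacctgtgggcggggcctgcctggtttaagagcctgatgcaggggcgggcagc
Rps18 (chr17:33955666-33955915, minus strand, 5 matches): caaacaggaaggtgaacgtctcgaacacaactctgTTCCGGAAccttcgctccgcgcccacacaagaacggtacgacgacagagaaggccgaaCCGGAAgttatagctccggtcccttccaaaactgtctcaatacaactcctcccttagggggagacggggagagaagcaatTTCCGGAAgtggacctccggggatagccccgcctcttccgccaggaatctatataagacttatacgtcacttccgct
Cd5 encodes a surface receptor that dampens T cell receptor signalling, Socs1 a feedback inhibitor of JAK-STAT signalling, and Rps18 a protein of the small ribosomal subunit. CCGGAA was present in 12.1% of all windows and in 20.5% of those inside the domains. Within the domains it was present in 28.3% of the 329 windows with ETS1 in all 4 libraries and in 6.04% of the 182 windows with ETS1 in none, and outside the domains in 31.9% of the 4135 windows with ETS1 in all 4. The RUNX letters TGTGGT went the other way inside the domains, with 8.51% of the windows with ETS1 in all 4 libraries and 22.5% of those with none, and 13.9% of all windows. AP-1 letters (TGANTCA) were in 3.22% and T-box letters (GGTGTGA) in 3.33% of the windows inside the domains, against 6.78% and 3.36% of all windows. These matches are descriptions of letters in a window.

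The domains spanned 9.88 to 216 kb, with a median of 36.6 kb, and held 2 to 49 core regions each, with a median of 8. In the mean of the WT libraries, peaks covered 7.80 to 93.5 kb of a domain, with a median of 11.8 kb. The 10609 other domains had a median covered length of 0.90 kb, and 72.7% of them were a lone core region. Together the 400 domains held 3432 of the 19279 core regions and 28.2% of all H3K27ac-covered length in each WT library. The lists carry no break at rank 400. Rank 400 (nearest Notch4) stood at 7.80 kb and rank 401 (nearest Lcp1) at 7.78 kb, with Letm2, Mapkapk2, Ggta1 and Arid5a at 7.90, 7.90, 7.86 and 7.81 kb just inside and Ahdc1, Vav1, Dbnl and Guk1 at 7.77, 7.75, 7.73 and 7.72 kb just outside. In the lists that chose the domains, 16.6% and 17.1% of the peaks of the WT libraries lay in the domains, and of the best-scored peaks 7.28% and 7.61% did, that is of the 10% of peaks with the highest q-value score. Median peak widths in the WT libraries were 924 and 909 bp inside and 575 and 569 bp outside.

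**Figure D1:**
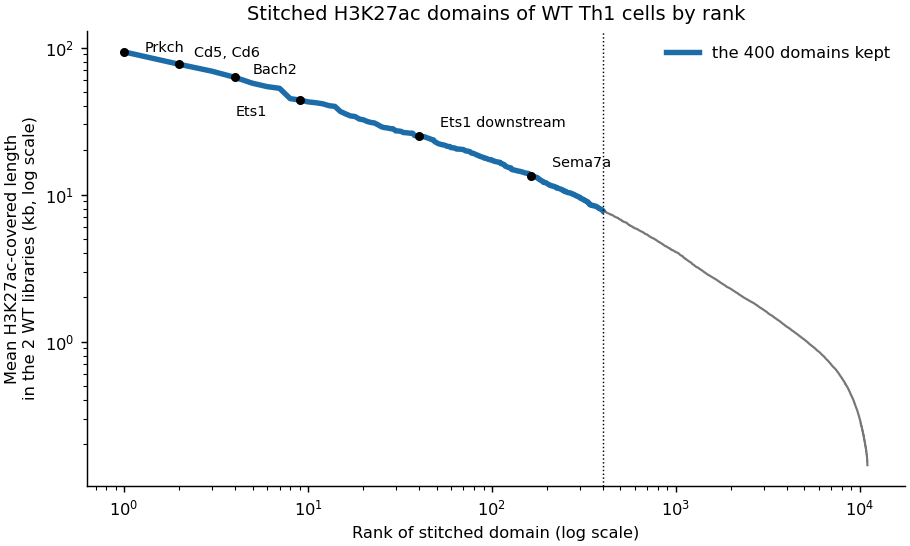
Mean H3K27ac-covered length of the 2 WT libraries (kb, log axis) for all 11009 stitched domains by rank (log axis), with the 400 kept in blue. The curve passes rank 400 without a step, at 7.80 kb against 7.78 kb for the next domain.

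The domain of highest rank lay at Prkch, the gene of protein kinase C eta, and LOC115488016, on chromosome 12 from 73565182 to 73781234 (GRCm38, as for all coordinates). The domain, of 49 core regions and the gaps between them, held 93.9 and 93.1 kb of H3K27ac in the WT libraries and 133 and 136 kb in the KO libraries. At rank 2, a domain over Cd5, Cd6 and Slc15a3 had 78.4 and 75.5 kb in WT compared with 107 and 103 kb in KO. In both domains the KO values lay above the WT values.

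Rank 3 covered a stretch of 11 genes from Abca7 to Fam174c that includes Gpx4 and Stk11, with 68.5 and 69.8 kb in WT, and in KO 84.8 and 86.6 kb. Bach2, a repressor gene of resting lymphocytes, followed with 60.8 and 64.8 kb in WT compared with 77.8 and 76.5 kb in KO. The 12 genes from Rexo1 to Dot1l made up rank 5, at 58.8 and 55.6 kb in WT, and in KO 69.8 and 77.0 kb. These 3 domains also had both KO libraries above both WT libraries.

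Ranks 6 to 8 were Chrac1 with Ago2, the Argonaute gene of RNA silencing, at 54.3 kb in both WT libraries and 67.3 and 69.2 kb in KO, and 2 regulators of T cells. Ikzf1, the Ikaros gene, had 55.2 and 50.5 kb in WT compared with 70.0 and 67.7 kb in KO, and Prkcq, whose kinase acts below the T cell receptor, had 45.3 and 44.7 kb in WT, and in KO 57.8 and 56.8 kb. Nfkb1 at rank 10, which encodes the NF-kB subunit p105/p50, had 43.6 and 42.0 kb in WT compared with 74.3 and 66.3 kb in KO. Hdac7 with Slc48a1 at rank 11 had 43.4 and 41.0 kb in WT, and in KO 54.3 and 50.6 kb.

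Rank 12 overlapped no protein-coding gene of the RefSeq table. It lay on chromosome 14 from 54180152 to 54233992, ending 1493 bp from Dad1, the stretch known to hold the distal part of the T cell receptor alpha locus, and had 41.7 and 41.3 kb in WT compared with 52.4 and 51.9 kb in KO. Septin9 at rank 13 was the exception among ranks 10 to 14, with 39.0 and 41.6 kb in WT, and in KO 37.2 and 39.3 kb, which overlap. Sla, an adaptor gene nested in Tg, had 40.3 and 39.4 kb against 50.5 and 52.0 kb at rank 14, again with WT first. The GIMAP cluster at rank 15 had 39.7 and 33.8 kb against 40.6 and 38.3 kb, which also overlap.

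**Figure D2:**
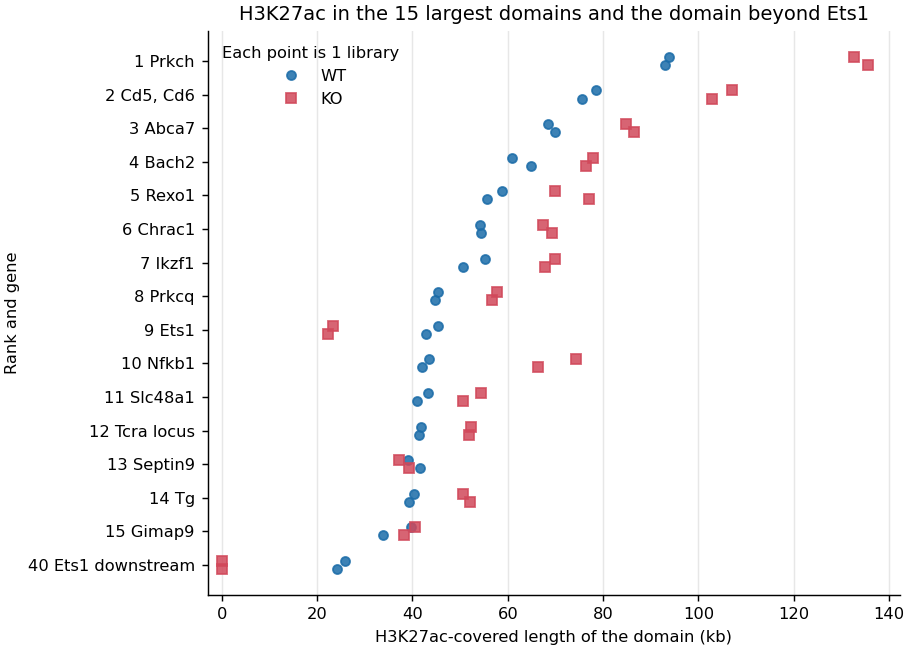
H3K27ac-covered length (kb) of the 15 domains of highest rank and of the domain at rank 40 beyond Ets1, with 1 point per library, WT as circles and KO as squares. KO points lie to the right of WT points at 12 of the 15, overlap them at Septin9 and the GIMAP cluster, and lie to the left at Ets1, while the domain beyond Ets1 stands at 0 in KO.

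Ets1 itself held the domain of rank 9, on chromosome 9 from 32695518 to 32750791, inside the gene. Acetylated length was 45.3 and 42.8 kb in WT compared with 23.3 and 22.2 kb in KO. The log2 of the KO over the WT mean was -0.92, with 1 kb added to each mean as for all ratios per domain. The deficit was not spread evenly, by a split chosen after the values were seen. The first 3 of its 9 core regions, from 32695518 to 32708841, had 10.2 and 9.62 kb in WT, and in KO 9.89 and 10.2 kb. The other 6 had 35.1 and 33.2 kb in WT compared with 12.7 and 11.6 kb in KO, and 3 of them had no KO peak. ETS1 covered 3.23 and 7.93 kb of the domain in WT and 2.44 and 2.13 kb in KO. CTCF covered 0.640 and 0.687 kb in WT, and in KO 1.59 and 0.916 kb.

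A second domain of this locus, rank 40, lay 148278 bp beyond Ets1, from 32906098 to 32943055. Its 8 core regions held 25.9 and 24.2 kb of H3K27ac in WT, and no KO library had an H3K27ac peak there, which held for no other of the 400 domains. ETS1 was called there in WT replicate 2 alone, over 2.00 kb. CTCF was called in all 4 libraries, at 2.40 and 1.99 kb in WT compared with 1.64 and 1.69 kb in KO. Most of it lay in the core region from 32937460 to 32941763, with 1458 and 1499 bp in WT and 1445 and 1437 bp in KO. The next and last core region, from 32942800 to 32943055, also had CTCF peaks in both KO libraries, over 165 and 155 bp. These 2 core regions thus gave peaks in KO while H3K27ac was at 0. The other 6 had no KO peak of H3K27ac, CTCF or ETS1, and as the labels do not map the deleted element, a lost mark and a lost sequence cannot be told apart there.

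Over the 400 domains, H3K27ac covered 6144 and 5999 kb in the WT libraries and 7413 and 7442 kb in the KO libraries, that is 6071 ± 103 kb against 7427 ± 20.5 kb (SD, n = 2 libraries each). This is 1.22 times as much in KO, where all chromosomes together had 1.31 times as much. The share of a library's covered length that fell in the domains was 28.2% in both WT libraries and 26.5% and 26.1% in KO. Both KO libraries lay above both WT libraries in 270 of the 400 domains (67.5%), against 23.2% of all 11009 domains, and below them in 46 (11.5%), against 16% of all domains, while the libraries overlapped in 84. Without WT replicate 2 the share below was 17.5%. Because WT libraries chose the domains, nothing is read from these shares, and no test was made. In bulk libraries, fewer cells with the mark and less of it per cell cannot be told apart. The large and other domains also differ in their number of core regions. With 3 or more core regions, both KO libraries were higher in 266 of 389 of the largest domains (68.4%) and in 626 of 1215 others (51.5%). Both KO libraries were lower in 42 (10.8%) and 174 (14.3%) of these. The part of the number of core regions in these shares was not tested. The median log2 ratio of the 400 domains was 0.26, with the middle 50% from 0.06 to 0.41, and that of the other domains was 0.01. The median was 0.13 with the better-scored 50% of each list and 0.13 without peaks near gene ends, where both KO libraries were below in 21.3% of domains. With domains chosen from the KO libraries it was 0.44, and both KO libraries were below in 2.75%.

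**Figure D3:**
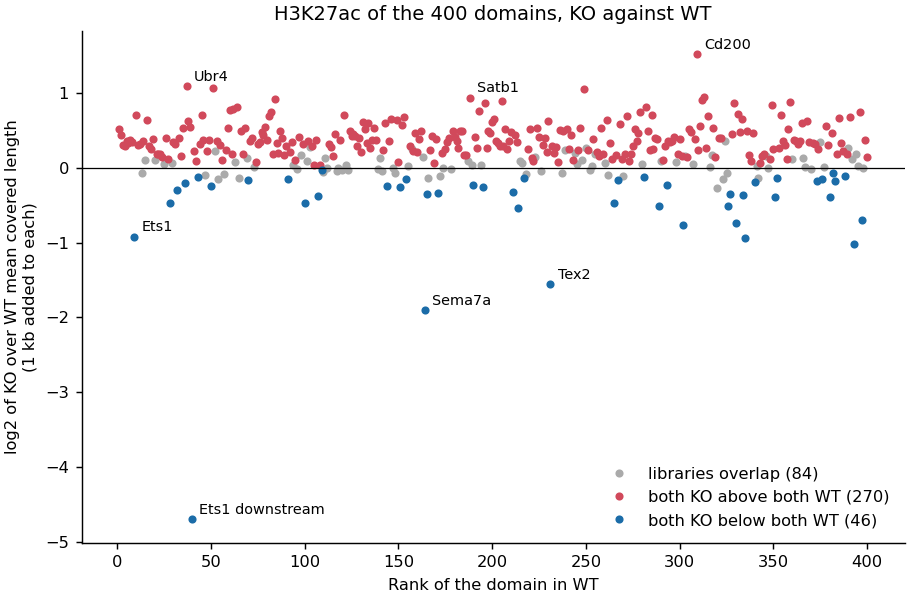
Log2 of the KO over the WT mean H3K27ac-covered length (1 kb added to each) for the 400 domains by WT rank, red where both KO libraries were above both WT libraries (270), blue where both were below (46) and grey where they overlapped (84). Most points lie between 0 and 1, the domain beyond Ets1 lies at -4.70 and Cd200 at 1.51.

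The 10 domains with the lowest ratios among those whose libraries did not overlap include both Ets1 domains. Next to the one beyond Ets1 came Sema7a, the gene of a semaphorin of immune cells. Its 2 core regions (chromosome 9 from 57939538 to 57955340) had 13.7 and 13.2 kb in WT, and in KO 2.15 and 3.58 kb (log2 ratio -1.90). Most of the difference lay in the wider core region of 11523 bp, with 10.4 and 10.7 kb in WT compared with 0.829 and 2.47 kb in KO. Both core regions kept a peak in KO.

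Tex2, which encodes a protein of the endoplasmic reticulum, had 10.0 and 12.1 kb in WT, and in KO 2.93 and 3.23 kb over 8 core regions, 3 of which had no KO peak. Gatad2a, a subunit gene of the NuRD complex, had 8.90 and 6.94 kb in WT compared with 3.84 and 2.97 kb in KO. Tbc1d2b had 10.2 and 7.42 kb in WT, and in KO 3.46 and 4.82 kb. In each of these domains the KO values lay below the WT values.

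Srgap3, Snx18, Mapkapk2, the gene of a kinase downstream of p38, and Ppard with Fance completed the 10, with log2 ratios of -0.77, -0.74, -0.70 and -0.54. A domain over Cyrib at rank 28 was lower in KO over a wide stretch as well, with 28.96 and 27.3 kb in WT compared with 20.4 and 19.7 kb in KO. It and the next domain are named although the rule for naming did not take them. At rank 326, 13021 bp from Gzmb, the granzyme B gene of cytotoxic lymphocytes, a domain without a protein-coding gene had 9.31 and 8.71 kb in WT, and in KO 5.93 and 6.15 kb, and no ETS1 library had a peak there.

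At the other end stood Cd200, which encodes a ligand that restrains myeloid and T cells, on chromosome 16 from 45349707 to 45409070. It had 9.69 and 9.01 kb in WT compared with 32.03 and 24.99 kb in KO (log2 ratio 1.51). All 15 of its core regions kept a peak in both KO libraries, and the added length lay mostly between them. Ubr4, a ubiquitin ligase gene, had 25.9 and 26.4 kb in WT, and in KO 55.7 and 57.7 kb. In both domains the lowest KO library was more than 2 times the highest WT library.

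Il6ra, the IL-6 receptor gene, had 10.1 and 10.99 kb in WT, and in KO 24.8 and 20.9 kb. Iars, a tRNA synthetase gene, had 9.16 and 9.42 kb against 18.4 and 19.3 kb, with WT first here and below. Satb1, a chromatin organiser gene of thymocytes, had 12.4 and 12.2 kb against 24.9 and 24.1 kb. Il2ra with Rbm17, the IL-2 receptor alpha chain gene and a splicing factor gene, had 19.4 and 17.5 kb against 37.4 and 33.8 kb. The domains over Wdr59 and Znrf1 and over Prkag1 and Kmt2d followed, with log2 ratios of 0.91 and 0.90. A log2 ratio above 1 was found in 4 domains, among them Cd200, Ubr4 and Il6ra, and one under -1 in 4 (beyond Ets1, Sema7a, Tex2 and Gatad2a).

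In these WT-built domains the KO excess lay between the core regions. Within core regions, H3K27ac covered 5983 and 5854 kb in WT compared with 5847 and 5862 kb in KO, a ratio of 0.989. In the gaps it covered 161 and 144 kb in WT, and in KO 1566 and 1580 kb, or 1.47% and 15.1% of the gap length. The gaps were low in WT by construction, since a stretch called in both WT libraries is core. When the same rule was applied to the KO libraries (an alternative added after the data were examined), the gaps of the 400 domains had 354 and 342 kb in WT compared with 146 and 233 kb in KO. The core regions did not mirror each other: the WT-built core was covered to 87.6% in WT and 86.7% in KO, whereas the KO-built core was covered to 60.9% in WT and 88.4% in KO. Of the 3432 WT core regions, 3101 (90.4%) had a peak in both KO libraries and 127 (3.70%) in neither, against 87.6% and 5.41% of the core regions of the other domains. All H3K27ac peaks together covered 21.5 ± 0.364 Mb in WT and 28.3 ± 0.370 Mb in KO (SD, n = 2), the depth of the libraries is unknown, and the part of that difference in these values was not tested.

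**Figure D4:**
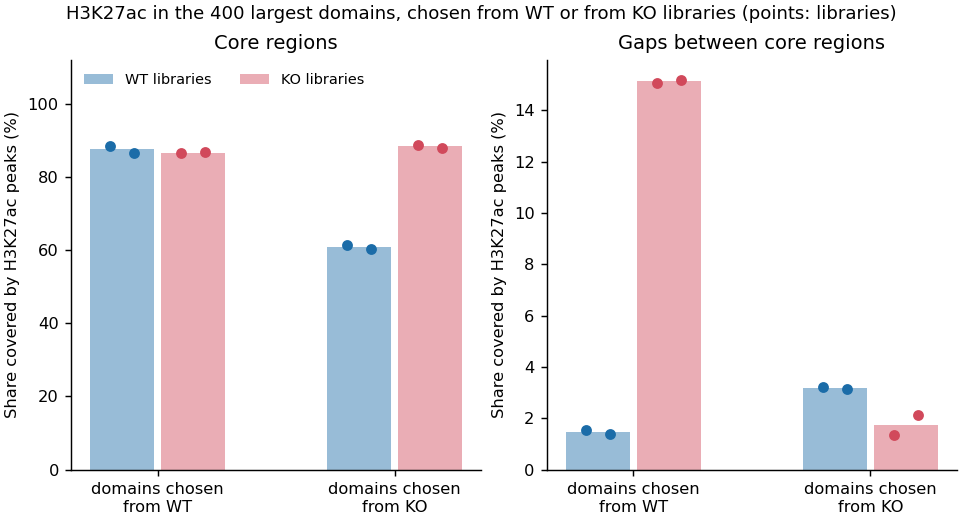
Share of the core regions (left) and of the gaps between them (right) covered by H3K27ac peaks (%), for the 400 domains chosen from WT and from KO libraries, with bars for the mean of 2 libraries and points for libraries. WT-built core regions are covered alike (87.6% and 86.7%), KO-built core regions are covered to 60.9% in WT and 88.4% in KO, and WT-built gaps to 1.47% in WT and 15.1% in KO.

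Ranking the KO libraries by the same rule gave 11494 domains. Of the 400 WT domains, 323 (80.8%) overlapped one of the 400 largest KO domains, and 316 (79%) of the KO domains overlapped a WT one.

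ETS1 peaks were found in nearly every large domain, yet at a lower density per acetylated sequence than elsewhere. ETS1 was called in all 4 libraries in 308 domains (77%) and in none in 3 (0.75%), which lay at Fyb, at Celf2 and near Gzmb. Of the other domains, 47.8% had it in all 4 and 12.7% in none. The other domains are far shorter, with a median span of 1.08 kb against 36.6 kb, so these shares are not alike in sequence searched. Per kilobase of core region, ETS1 peaks covered 98.95 and 203 bp in the WT libraries and 166 and 79.4 bp in the KO libraries. In the core regions of the other domains they covered 273, 428, 404 and 230 bp. The mean log2 ratio of large to other domains over the 4 libraries was -1.34 ± 0.20 (SD, n = 4), lower in 4 of 4 libraries. The exact two-sided sign-flip permutation test gave p = 0.125, the smallest p that 4 libraries allow. Every density ratio here divides by core length, which comes from the WT H3K27ac lists that chose the domains. All 4 libraries were also read over the same regions, so nothing is read from the p-values of density.

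CTCF was sparser in the large domains too. It covered 95.8 and 96.0 bp per kb of core region in WT and 164 and 138 bp in KO, against 286, 296, 443 and 406 bp in the other domains. The mean log2 ratio was -1.55 ± 0.08 (SD, n = 4), lower in 4 of 4 libraries, with an exact sign-flip permutation p of 0.125. CTCF was called in all 4 libraries in 356 of the 400 domains (89%), against 61.8% of the shorter others. It was called in none in 6 (1.5%), against 13.5% of the others. The 6 lay at Elf1, Iars, Dync1h1, Ptpn2, Ms4a6b with Ms4a6c, and 311327 bp from Cblb.

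Gene ends carried more of both proteins, and the large domains had a smaller share of them. A start or end of a protein-coding gene lay within 2 kb of 26.9% of their core regions and of 52.0% of the other core regions. The lower density was present in either class. For ETS1 the mean log2 ratio was -0.97 ± 0.14 at gene ends and -0.95 ± 0.16 away from them (SD, n = 4, exact sign-flip permutation p of 0.125 for each). For CTCF it was -1.21 ± 0.07 and -1.34 ± 0.10, with the same exact p. These make 6 tests of density, and the Benjamini-Hochberg adjusted p is 0.125 for all of them. Core regions are wider in the large domains, with medians of 1689 bp against 915 bp at gene ends and 1196 bp against 724 bp elsewhere, and the part of this width in the density was not tested. By count, ETS1 was called in all 4 libraries in 43.4% of the gene-end core regions of the large domains and 57.4% of the others, and away from gene ends in 6.29% and 9.54%. For CTCF these shares were 47.9% and 66.2% at gene ends, and 14.9% and 25.4% away from them.

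The greatest ETS1 lengths were in the domains of 12 and 11 genes. The Rexo1 to Dot1l domain had 13.5 and 26.8 kb in WT, and in KO 25.04 and 13.02 kb, and the Abca7 to Fam174c domain had 15.7 and 23.4 kb in WT compared with 29.1 and 9.24 kb in KO. Il4ra with Il21r, 2 cytokine receptor genes, followed with 6.26 and 13.0 kb in WT, and in KO 11.5 and 7.16 kb. In these domains the replicates of a genotype differed by more than the genotypes did. The next were Chrac1 with Ago2, the domain of Il12rb1, the IL-12 receptor beta 1 gene, that of Jak3, the kinase of the common gamma chain, that of Eef2, and that of Rps18 and Daxx.

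CTCF was also greatest in the Rexo1 to Dot1l domain, at 15.6 and 14.96 kb in WT compared with 20.2 and 20.3 kb in KO, and in the Abca7 to Fam174c domain, at 10.2 and 12.2 kb in WT, and in KO 18.6 and 15.9 kb. Next came the domain of the cytokine genes Ltb, Tnf and Lta, with 9.44 and 8.13 kb in WT compared with 14.96 and 12.3 kb in KO. KO values were above WT values in each. The remaining ones of the 8 were the domains of Bbc3, Jak3, the H2-T genes, Socs1 and Ddit4.

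Between the genotypes, CTCF covered 802 and 796 kb of the 400 domains in WT and 1337 and 1115 kb in KO, that is 799 ± 4.77 kb against 1226 ± 157 kb (SD, n = 2), a log2 ratio of 0.62. The exact two-sided permutation test of 2 against 2 libraries gave p = 0.333, the smallest it can give. All CTCF peaks together covered 1.31 times as much in KO, and those in the domains 1.53 times. When every library was cut to an equal number of its best peaks, the log2 ratio was 0.34. Both KO libraries were above both WT libraries in 283 domains (70.8%), against 49% of all stitched domains, and below in 4 (1%), against 1.61%. The 4, named after their values were seen, are the domain beyond Ets1, those at Atxn7l1 and Ppp5c, and one 172512 bp from Jarid2.

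ETS1 covered 707 and 1491 kb in WT, and in KO 1272 and 560 kb, that is 1099 ± 555 kb against 916 ± 504 kb (SD, n = 2), a log2 ratio of -0.26 with an exact permutation p of 0.667. The difference is smaller than the spread within either genotype, and the ratio turned to 0.37 without WT replicate 2 and to 0.21 without KO replicate 2. With 2 tests of totals, the Benjamini-Hochberg adjusted p is 0.667 for both CTCF and ETS1. Both KO libraries were below both WT libraries in 46 domains (11.5%), close to the 10.6% of all stitched domains, and above in 6 (1.5%), against 4.87%. Of the 46 domains with lower H3K27ac in KO, 10 (21.7%) also had lower ETS1, among them Ets1, Thy1, Snx18 and Mapkapk2, and of the 270 with higher H3K27ac, 24 (8.89%) did. Higher CTCF in KO was present in 27 (58.7%) of the former and in 209 (77.4%) of the latter. Across the 400 domains the log2 ratio of H3K27ac had a Spearman rho of 0.20 with that of ETS1 and 0.09 with that of CTCF, and of 0.29 with the number of core regions. These are correlations across domains, which share libraries and are not independent replicates.

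Inside the domains, ETS1 and CTCF were densest in the outermost of 10 equal bins, which begin and end on a core region by construction. For CTCF in the WT libraries, peaks covered 10.1% and 10.6% of the outer bins and 2.96% and 2.79% of the central ones, and in KO 16.0% and 13.4% against 5.44% and 4.39%. ETS1 covered 7.79% and 14.9% of the outer bins in WT and 13.0% and 6.28% in KO, against 3.20%, 7.18%, 5.80% and 2.37% of the central ones. H3K27ac was flatter, at 41.8% and 41.2% in the outer bins against 35.1% and 34.6% at the centre in WT. The outer bins had 2.95 to 3.81 times the CTCF of the central ones here and 1.83 to 1.98 times in the other domains, which are mostly a lone core region. In the first 5 kb beyond an edge, H3K27ac covered 0.783% and 1.00% in WT and 6.00% and 6.13% in KO, where the WT values are low because a region called in both WT libraries would have been joined. A CTCF region called in all 4 libraries lay within 5 kb of 273 of the 800 domain edges (34.1%), against 34.8% of the edges of other domains, and inside 349 of the 400 domains (87.3%), against 61.6% of the shorter others.

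**Figure D5:**
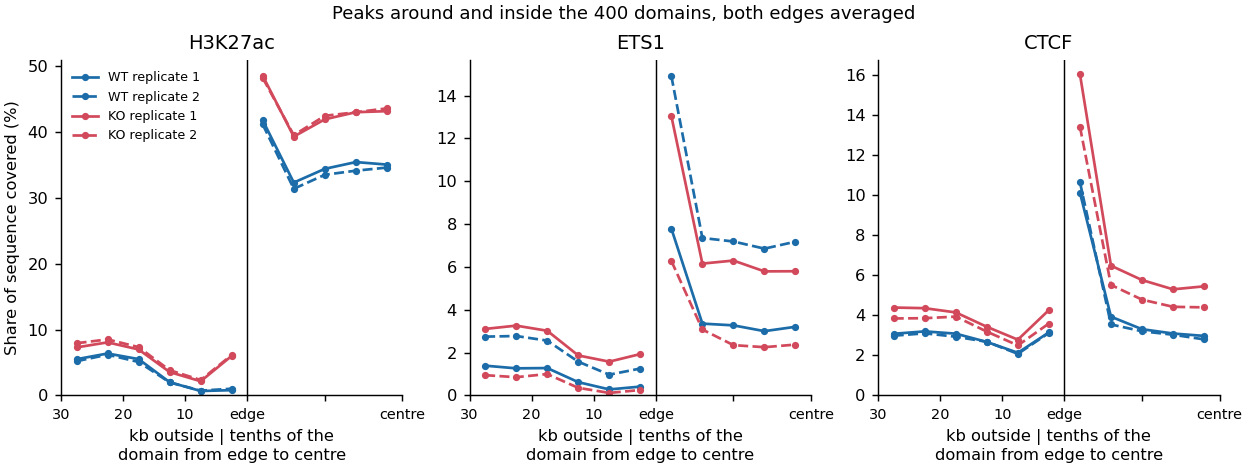
Share of sequence covered by H3K27ac, ETS1 and CTCF peaks (%) from 30 kb outside the 400 domains to the edge and, in 10% bins of the domain, from the edge to the centre, averaged over both edges, with 1 line per library. CTCF and ETS1 are highest in the outermost bin in all libraries (10.1% and 10.6% for CTCF in WT), and H3K27ac just outside the edge is higher in KO than in WT.

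The domains overlapped 771 of 21631 protein-coding genes (3.56%), and 1634 genes (7.55%) lay within 50 kb of one. With joining up to 5 or 25 kb, 474 or 1321 genes were overlapped. No gene was overlapped by 31 domains (7.75%), 177 overlapped 1 gene, and 192 overlapped 2 or more, up to 12. Of the other domains, which are far shorter, 12.7% overlapped no gene. The label of the cells as T cells, not as Th1 cells, was checked against markers. Of 24 T cell identity genes, 16 lay in a domain, among them Cd3e, Cd3d, Cd3g, Cd4, Cd2, Cd5, Cd6, Lck, Zap70, Ptprc, Satb1, Bcl11b, Ets1, Ikzf1 and Thy1. None of 10 myeloid, 9 CD8 T and NK cell, 8 erythroid and 10 non-haematopoietic markers did, and of 8 B cell markers Cd79a did, whose gene itself had no H3K27ac peak in any library. The lists describe these libraries and were not tested.

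Among the T cell identity genes, 11 lay in domains with both KO libraries above both WT libraries and 2, Ets1 and Thy1, in domains with both below. The 11 of 16 compare with 67.5% of the 400 domains and 23.2% of all stitched domains. Ptprc, the CD45 phosphatase gene, had a domain of 19.0 and 18.4 kb in WT compared with 33.5 and 30.3 kb in KO. The domain over Bcl11b, the gene of a factor of T cell commitment, had 31.7 and 30.2 kb in WT, and in KO 35.7 and 34.8 kb. Over the whole Bcl11b gene H3K27ac covered 46.3 and 44.2 kb in WT compared with 57.3 and 56.3 kb in KO. The domain over Cd3g, Cd3d and Cd3e, which encode chains of the T cell receptor complex, had 10.3 and 9.01 kb in WT compared with 10.9 and 9.51 kb in KO, which overlap. Thy1, a surface glycoprotein gene of T cells, had 16.7 and 17.5 kb in WT, and in KO 11.6 and 12.6 kb.

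Of 35 genes of activation, cytokine signalling and checkpoints, 18 lay in a domain, and at all 18 both KO libraries were above both WT libraries, where 67.5% of the 400 domains were. Several share a domain, as do Stat3, Stat5a and Stat5b, the genes of cytokine-activated transcription factors, with 27.8 and 24.7 kb in WT compared with 39.99 and 36.7 kb in KO, and Tnfrsf4 and Tnfrsf18, which encode OX40 and GITR. The others were Il2rb, Nfkb1, Nfatc1, Nfatc2, Nr4a1, Junb, Fosl2, Irf4, Irf8, Socs1, Cish, Lag3 and Cblb. The domain of Socs1, whose promoter is printed above, had 21.1 and 21.4 kb in WT, and in KO 25.9 and 24.7 kb. ETS1 covered 3.57 and 7.21 kb of it in WT against 7.39 and 1.52 kb in KO, without a division by genotype.

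Th1 genes were fewer, 5 of 25. Tbx21, which encodes the Th1 regulator T-bet, lay in the domain of rank 42 with 25.5 and 24.1 kb in WT compared with 25.9 and 26.97 kb in KO. Runx3, its partner in Th1 gene control, had 13.8 and 15.2 kb in WT, and in KO 15.2 and 13.3 kb, which overlap. Il12rb1 and Il2ra were also among the 5, and neither Ifng nor Gzmb lay in a domain. The Th1 genes without an H3K27ac peak over the gene in any library were Ifng, Cxcr3, Ccl3, Ccl5 and Twist1. The share of Th1 genes in a domain (20%) was near that of housekeeping (22.2%) and Th2 genes (16.7%). The count thus does not set Th1 genes apart, and the Th1 part of the label was not tested.

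Of 10 naive and memory T cell genes, 4 lay in a domain, all with both KO libraries above both WT libraries, as in 67.5% of the 400 domains. They were Bach2, Il7r, the IL-7 receptor gene, with 28.1 and 26.1 kb in WT, and in KO 36.9 and 31.02 kb, Lef1, a factor of naive T cells, with 12.1 and 10.6 kb in WT compared with 15.8 and 17.4 kb in KO, and Foxp1. These lengths are those of the domains. Over the whole Lef1 gene H3K27ac covered 19.8 and 17.55 kb in WT compared with 31.8 and 30.6 kb in KO. Of 12 Th2 genes, 2 lay in a domain (Il4ra and Stat6), and of 19 genes of Th17, Treg and Tfh cells, 0. The 22 ETS family genes had 4 (Ets1, Elf1, Elk3 and Erf), of which Ets1 was in a domain lower in KO and the other 3 in domains higher in KO. The 18 housekeeping genes had 4 (Actb, Eef2, Ppia and Rps18), all in domains higher in KO. With 67.5% of the 400 domains higher in KO, such small counts say nothing particular about a list. Over all lists 53 of 205 different genes (25.9%) lay in a domain.

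The domains without a protein-coding gene included known T cell loci. One at rank 127, on chromosome 6 from 41534413 to 41559661 and 9334 bp from Prss2, lies where the distal part of the T cell receptor beta locus is known to be, and had 17.1 and 13.3 kb in WT, and in KO 21.2 and 20.1 kb. At rank 44, 16889 bp from the activation marker gene Cd69, a domain had 24.9 and 24.04 kb in WT compared with 31.7 and 29.8 kb in KO. Domains at ranks 251, 390 and 333 lay 228882, 277261 and 320127 bp from Satb1 in a row on chromosome 17. The domain nearest to Myc, 174599 bp away at rank 115, had 15.7 and 16.4 kb in WT, and in KO 18.7 and 17.3 kb. At rank 390 the libraries overlapped, with 8.30 and 7.65 kb in WT compared with 11.2 and 8.30 kb in KO, and in the others KO values lay above WT values.

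MicroRNA genes lay in the domains as well. MicroRNAs are short RNAs that pair through their seed, bases 2 to 8, with messenger RNAs and lower their output. Of 1005 hairpins of the RefSeq table, 44 (4.38%) lay in a domain, and 23 of these had an H3K27ac peak in both WT libraries. The same WT peaks built the domains, so nothing is read from the 23. Mature sequences of 2 loci known in T cells are printed, chosen after their values were seen, with the seed in capitals.
miR-23a-3p: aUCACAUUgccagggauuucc
miR-27a-3p: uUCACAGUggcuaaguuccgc
miR-24-3p: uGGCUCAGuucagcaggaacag
miR-21a-5p: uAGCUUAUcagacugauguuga
The 4 seeds differ from each other. The hairpins of miR-23a, miR-27a and miR-24-2 lie together on chromosome 8 from 84208518 to 84208921 in the domain of rank 222, at Zswim4, and were covered by H3K27ac over their whole length in all 4 libraries. That domain had 11.9 and 10.7 kb in WT, and in KO 12.04 and 12.01 kb, and ETS1 covered 4.01 and 7.39 kb of it in WT against 5.58 and 2.93 kb in KO. The miR-21a hairpin, on chromosome 11 from 86584067 to 86584158 within Vmp1, lies in the domain of rank 119, with 13.3 and 17.8 kb in WT compared with 20.2 and 20.7 kb in KO. Its 92 bases were covered in full in 3 libraries and over 83 bases in WT replicate 2. ETS1 in this domain was called in WT replicate 2 alone, over 0.41 kb.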

How the data were processed

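CUT&RUN libraries of Th1 cells were represented by 1 deposited peak list each, with 9 columns, and grouped by antibody and genotype from the titles. The submitters' processing notes name BWA and GRCm38. Peak names inside the lists have the form that MACS2 gives to broad peaks. Options of the caller, filters and any use of the control library were not given in the sources used here. The authors' score per peak is a whole number, and the deposited lists also give a fold (ratio) of enrichment, −log10 p and −log10 q. These were used only to rank peaks within a list. Without read counts the depth stays unknown, no interval can be given, and depth cannot be told apart from the number and width of peaks.

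Peaks on chromosomes 1 to 19 and X were merged per library. A core region joins overlapping peaks (1 bp) present in both WT H3K27ac libraries. Covered length is sequence under peaks. Genes, promoters and microRNAs came from RefSeq tables (GRCm38.p6), 21631 protein-coding genes on these chromosomes. The gene table was used for positions, without strand. Domains were named by the genes they overlap or the nearest one. Named were the 15 of highest rank, the 10 with the lowest and 10 with the highest H3K27ac ratio among those without overlap of libraries, the 8 with most ETS1 and with most CTCF, all at Ets1, 5 on each side of rank 400, and list genes. Promoters were printed from genes of the 15 top domains or the lists. Only windows covered in full by H3K27ac of both WT libraries and by every ETS1 library were taken. Those holding CCGGAA were printed, plus that of Cd5, which holds GGAA without CCGGAA. Domains named beside a count of 6 or fewer, and those the text marks, were chosen after their values were seen. The domains, gene lists and tests were chosen with earlier results of these data known. Tests were exact permutation tests over libraries, run with Python 3.11.15, pandas 2.3.3, numpy 2.4.6 and scipy 1.17.1, and figures were drawn with matplotlib 3.10.9. The interval code was tested on simulated data. Alternatives changed the joining distance, the number kept, the ranking, the peaks used, the overlap and the libraries. Some domains that the naming rule takes are not reported here.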

Additional observations from a re-analysis of the deposited data

How the results depend on the processing

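Of 136 values recomputed under 16 alternatives, 34 moved beyond the limits set for them, 3 reversed and 99 did neither. Limits were the spread between libraries for the median, the 95% binomial interval for percentages and a factor of 1.5 for genes. The binomial interval counts domains as independent, although they share libraries, so it is only a yardstick and does not measure the spread between libraries. Density ratios and totals were read for their direction only, whatever the size of the move. Of the 99, 15 were ETS1 density, 15 CTCF density, 13 the ETS1 total and 15 the CTCF total. The density ratio ranged from -1.74 to -1.06 for ETS1 and from -1.84 to -1.34 for CTCF, and the CTCF total from 0.34 to 0.74. Both density ratios stayed below 0 under every alternative run, with the same exact p while all 4 libraries were kept. The median log2 H3K27ac ratio (0.26) was 0.20 with joining up to 5 kb, 0.29 up to 25 kb, 0.28 for the top 200, 0.23 for the top 800, 0.29 when ranked by span, 0.38 with regions of either genotype, 0.23 with equal numbers of peaks, 0.13 with the better 50% of each list by q, 0.13 without peaks near gene ends and 0.44 with domains chosen from KO. It ranged from 0.26 to 0.28 when a library was left out. Domains with both KO libraries higher (67.5%) were 61.9% for the top 800, 79.8% with regions of either genotype, 48.8% with the better 50%, 46% without gene ends, 84.8% chosen from KO, and 70% to 74.8% without 1 library. Those with both lower (11.5%) were 5.75%, 21.3% and 2.75% with regions of either genotype, without gene ends and chosen from KO, and 13.5% to 17.5% without 1 library, where fewer values have to lie apart. The share recovered in KO (80.8%) was 75.5% for the top 200, 66% by span, 72.5% with the better 50% and 75.8% without gene ends, and 79.8% to 81.5% without 1 library. The 771 genes became 474 and 1321 with joining up to 5 and 25 kb, 401 and 1374 for the top 200 and 800, and 318 without gene ends. The cause of these moves was not tested, except that more or fewer domains and joined stretches hold more or fewer genes. The ETS1 total (-0.26) ranged from -0.97 to 0.37 without 1 library, reversing to 0.37 without WT replicate 2 and 0.21 without KO replicate 2. The log2 ratio of H3K27ac in the gaps, 3.37, was -0.87 with domains chosen from KO, as the rule keeps the choosing libraries low there. Recovery could not be computed for domains ranked over both genotypes, whose ranking uses the KO libraries. No paired analysis was possible because the numbers mark technical replicates in WT and biological replicates in KO, and no model was fitted across regions. Groups of 2 libraries could not be tested for outlying samples. The unknown depth limits every comparison of covered length between genotypes.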
